A study of Danio rerio with 8 samples.

Results

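Immediate early genes were followed in RNA from eyes of zebrafish embryos, with 4 libraries of WT and 4 labelled *flrt2*-KO. 10 genes were taken by symbol from the deposited gene table of 37114 rows: *fosab*, *fosb*, *egr1*, *junba*, *junbb*, *jun*, *ier2b*, *atf3*, *dusp1* and *btg2*. Each had 1 row among the 33113 rows on chromosomes 1 to 25. The WT libraries carry titles that begin with AB, the background strain. The other libraries carry titles that begin with CH1359 and a genotype label of *flrt2* mutant, for a line with a 20 bp CRISPR/Cas9 deletion that was bred on AB. Per the study's methods each library held about 40 pooled eyes at 36 hpf, so a value is the mean of a pool, and the mutant group is a single allele. The methods describe crosses of heterozygous fish for the phenotypic analyses, and do not say whether the WT eyes for RNA came from such siblings or from AB stock. No treatment was given, and how long the eyes were handled before lysis is not described in the sources used here. The libraries are named below by their group and the last part of their title: 12_16, 1_19, 1_8 and 1_8_ysy in WT, and 12_16, 1_19, 2_17 and 1_8_ysy in the other group, shortened to KO. The meaning of these suffixes is not given.

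Immediate early genes are transcribed within minutes of a stimulus from factors already present in the cell, with no need for new protein. Growth factors, neuronal activity, wounding and osmotic or heat stress act through MAP kinases on transcription factors such as SRF, the ternary complex factors and CREB at their promoters. Their mRNAs are short-lived. Fos and Jun proteins pair through a leucine zipper to form AP-1, Egr1 is a zinc finger factor, and Dusp1 closes the loop by dephosphorylating the MAP kinases. In mammals these genes also rise while tissue is dissected and dissociated, which is why they are read as a sign of handling.

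The libraries held 13423932 to 14835885 recovered reads. All 14 markers of retinal progenitors were detected in each of the 8 libraries, with a summed level of 432 to 566 FPKM in WT and 448 to 604 FPKM in KO. Markers of lens and of surface epithelium were also high, at 1988 to 3388 and 2207 to 6189 FPKM over all libraries. The pools thus held other tissues beside the retina. Blood markers summed to 376 to 1877 FPKM, and those of brain outside the retina to 106 to 124 FPKM. Those of skeletal muscle summed to 9.66 to 28.0 FPKM, and those of yolk and liver to 7.05 to 33.3 FPKM. In such bulk RNA, fewer cells of a type and less RNA per cell cannot be told apart. *flrt2* itself, the targeted gene, had 2.48, 2.33, 2.25 and 2.55 FPKM in WT 12_16, 1_19, 1_8 and 1_8_ysy. It had 2.90, 3.99, 2.80 and 3.80 FPKM in KO 12_16, 1_19, 2_17 and 1_8_ysy, each above all WT libraries. The log2 fold change was 0.40 (SE 0.154, adjusted p = 0.110 from limma). The label gives a genotype, which these levels do not test. By RT-qPCR the paper reported lower *flrt2* mRNA in mutants, in larval brain at an earlier age. Every direction below rests on the labels.

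None of the 10 immediate early genes was called different between the groups. Of the 9 that passed the filter on low values, 0 were higher and 0 lower in the group labelled *flrt2*-KO at an adjusted p under 0.05 from limma, where 8.28% of all 21012 genes tested were higher and 7.37% were lower. At an unadjusted p under 0.05 there were 2, *egr1* and *jun*, against 6122 (29.1%) of all genes tested. The voom method of limma on recovered reads called 0 and also gave 2 at that unadjusted p. The groups overlapped in each of the 10 genes, so that 0 of 10 stood apart, against 21.1% of all genes tested. The log2 fold change was below 0 in 7 of 9, against 51.7% of all genes, and the median was -0.31 against -0.01 over all genes. Two-sided exact permutation tests of the 10 genes, unadjusted, gave p from 0.0571 (*btg2*) to 0.971 (*junba*), where 0.0286 is the smallest p that 4 libraries against 4 allow.

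**Figure D1:**
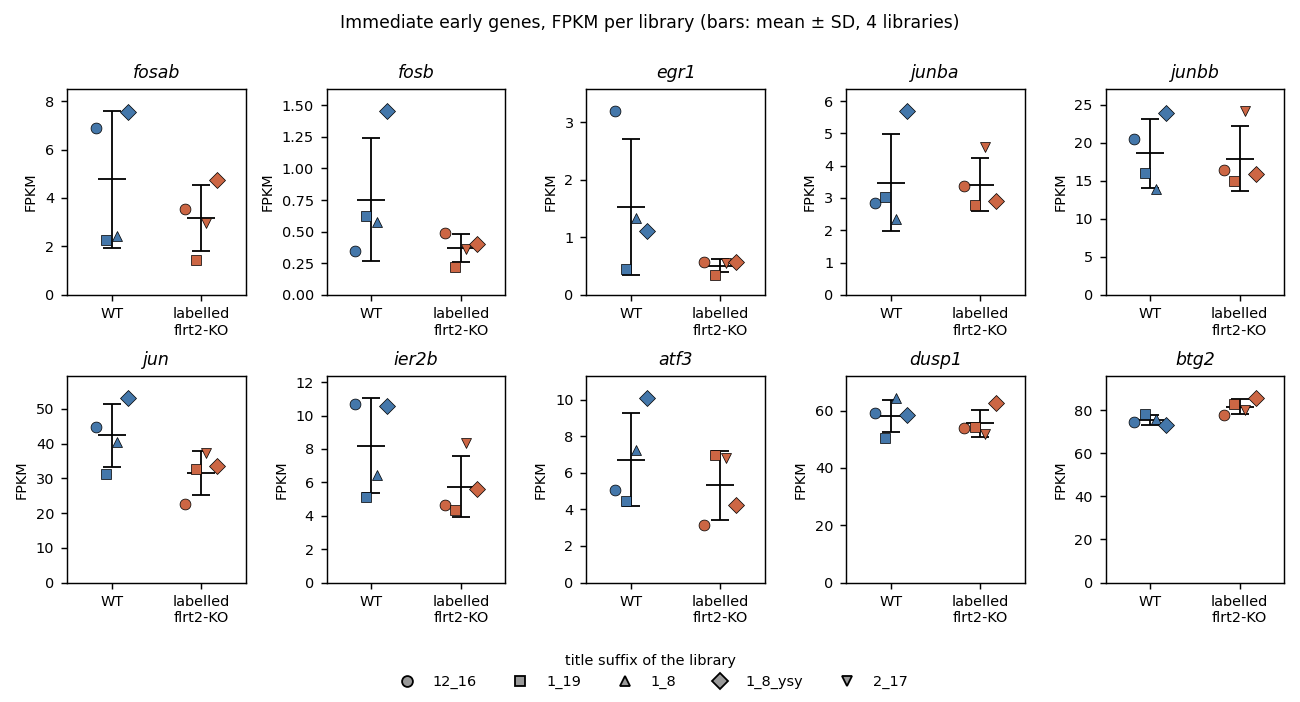
FPKM of each of the 10 immediate early genes (vertical axes from 0) in the 4 WT libraries and the 4 labelled *flrt2*-KO, with the mean and SD as bars and the marker shape giving the title suffix. The groups overlap in each gene, *btg2* and *dusp1* lie within a narrow band, and *egr1* and *fosab* range 7.18-fold and 3.36-fold within WT.

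The genes differed in level by 2 orders of magnitude. The means over the 8 libraries, in FPKM and so per length, were 78.6 for *btg2*, 56.9 for *dusp1*, 37.0 for *jun*, 18.2 for *junbb*, 6.97 for *ier2b*, 6.02 for *atf3*, 3.98 for *fosab*, 3.44 for *junba*, 1.02 for *egr1* and 0.560 for *fosb*. *btg2*, *dusp1*, *jun* and *junbb* kept this order in 8 of 8 libraries, and *junbb* was above *ier2b* in 8 of 8. The neighbours below that were not set apart by their spread. *ier2b* was above *atf3* in 6 of 8 libraries, *atf3* above *fosab* in 5, *fosab* above *junba* in 5, *junba* above *egr1* in 7 and *egr1* above *fosb* in 6, with overlapping ranges in each case. The order thus placed *jun* far above the Fos genes, and the *fosab* mean near the middle of all genes tested (50.5th percentile).

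The Fos genes encode the AP-1 partners that cannot pair with themselves and need a Jun protein. *fosab* (ENSDARG00000031683, chromosome 20, 46552311 to 46554440 on the minus strand of GRCz11), the zebrafish *fos* copy that is widely used to mark active cells, had 6.87, 2.25, 2.43 and 7.56 FPKM in WT 12_16, 1_19, 1_8 and 1_8_ysy. In the KO libraries 12_16, 1_19, 2_17 and 1_8_ysy it had 3.55, 1.46, 2.96 and 4.73 FPKM. The WT libraries split into a high and a low pair more than 2-fold apart, and 3 of the 4 KO libraries lay within their range. The means were 4.78 ± 2.83 and 3.18 ± 1.36 FPKM (SD, n = 4 each), a log2 fold change of -0.43 (SE 0.411, 95% interval -1.35 to 0.48, adjusted p = 0.534 from limma). In both groups the suffix 1_19 was lowest and 1_8_ysy highest, and with the suffix as a block the log2 fold change was -0.66 (adjusted p = 0.0636). As single libraries were left out it ran from -0.69 (without WT 1_19) to -0.16 (without KO 1_19). A gene on the plus strand, *si:ch211-153j24.3*, spans *fosab* and had 12 to 38 reads per library, against 36 to 198 for *fosab*. The strand setting of the counting is not given in the sources used here, so reads of the shared stretch cannot be assigned for certain.

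*fosb* (ENSDARG00000055751, chromosome 18, 36769758 to 36774965, plus strand), a second Fos subunit, was the lowest of the 10. It had 0.347, 0.623, 0.580 and 1.46 FPKM in the WT libraries, in the same order as above, and 0.487, 0.221, 0.365 and 0.398 FPKM in the KO libraries. These are 9 to 63 reads per library, and the WT mean of 0.752 ± 0.486 FPKM (SD, n = 4) was raised by 1_8_ysy. It did not pass the filter. Fitted with no filter its log2 fold change was -0.47 (SE 0.254, 95% interval -1.04 to 0.11, adjusted p = 0.311 from limma), and -0.23 without WT 1_8_ysy.

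*jun* (ENSDARG00000043531, chromosome 20, 15552657 to 15554606, plus strand), which encodes c-Jun and is a target of the JNK kinases, was the highest of the Fos and Jun genes among the 10. It had 44.8, 31.3, 40.5 and 53.03 FPKM in the WT libraries and 22.5, 32.6, 37.3 and 33.6 FPKM in the KO libraries. 3 WT libraries lay above the whole KO range, while WT 1_19 lay inside it, and KO 12_16 was the lowest of the 8. The means were 42.4 ± 9.03 and 31.5 ± 6.33 FPKM (SD, n = 4 each). The log2 fold change of -0.42 (SE 0.186, 95% interval -0.84 to -0.01) did not pass the adjusted test (adjusted p = 0.161 from limma), and its adjusted p was lowest, at 0.0630, without WT 1_19. It stayed below 0 in all 21 alternatives, from -0.56 to -0.27. *flrt2* lies on the same chromosome (11098239 to 11178022, minus strand), as do *fosab* and *atf3*. Sequence carried along with the mutant allele was not tested.

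The JunB genes, whose protein is in mammals a weaker activator that can oppose c-Jun, overlapped widely between the groups. *junba* (ENSDARG00000074378, chromosome 1, 51732979 to 51734535, minus strand) had 2.83, 3.02, 2.35 and 5.70 FPKM in WT and 3.37, 2.78, 4.59 and 2.91 FPKM in KO. *junbb* (ENSDARG00000104773, chromosome 3, 7654655 to 7656059, minus strand) had 20.5, 15.9, 13.9 and 23.9 FPKM in WT and 16.5, 15.0, 24.2 and 15.9 FPKM in KO. In both genes WT 1_8_ysy and KO 2_17 were the highest of their group. The log2 fold changes were 0.02 for *junba* (SE 0.247, 95% interval -0.53 to 0.57, adjusted p = 0.965) and -0.05 for *junbb* (SE 0.194, -0.48 to 0.38, adjusted p = 0.899), both from limma. The intervals reach well to either side of 0, and the sign of both depended on single libraries: *junba* ran from -0.11 to 0.26 and *junbb* from -0.20 to 0.08 as each library was left out. *junba* was also below 0 with equal column sums (-0.04). The suffix as a block rests on 3 pairs and leaves WT 1_8 and KO 2_17 without a partner. With this block *junba* was -0.25 and *junbb* -0.32 (adjusted p = 0.191), and *junbb* was lower in KO within each of these pairs. *junbb* was 4.20 to 7.24 times *junba* in WT and 4.89 to 5.45 times in KO, in FPKM.

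*atf3* (ENSDARG00000007823, chromosome 20, 37794633 to 37800737, plus strand), a bZIP factor of the ATF family induced by stress and nerve injury that can pair with Jun, had 5.09, 4.47, 7.27 and 10.1 FPKM in the WT libraries. In the KO libraries it had 3.17, 7.0, 6.83 and 4.27 FPKM. The KO libraries held a low and a high pair, the WT values were graded from 4.47 to 10.1 FPKM, and the groups overlapped. The log2 fold change was -0.31 (SE 0.289, 95% interval -0.95 to 0.33, adjusted p = 0.523 from limma), and it was -0.11 without WT 1_8_ysy and also without KO 12_16. *ier2b* (ENSDARG00000086881, chromosome 11, 31038409 to 31039533, minus strand), which encodes a small nuclear protein of the immediate early response, had 10.7, 5.13, 6.44 and 10.5 FPKM in WT and 4.66, 4.34, 8.37 and 5.62 FPKM in KO. WT 12_16 and 1_8_ysy were above all KO libraries, and WT 1_19 and 1_8 were within their range. Its log2 fold change was -0.46 (SE 0.261, 95% interval -1.04 to 0.12, adjusted p = 0.281 from limma), or -0.73 with the suffix as a block (adjusted p = 0.0767).

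*dusp1* (ENSDARG00000100515, chromosome 14, 15760253 to 15763648, minus strand), the MAP kinase phosphatase that ends the signal to these genes, had 59.1, 50.6, 64.3 and 58.4 FPKM in WT and 53.9, 54.3, 51.7 and 62.5 FPKM in KO. All 8 values lay within 1.27-fold of each other. The log2 fold change was -0.06 (SE 0.104, 95% interval -0.29 to 0.17, adjusted p = 0.749 from limma), and with the suffix as a block it was 0.02. *btg2* (ENSDARG00000020298, chromosome 22, 336256 to 339623, plus strand), an antiproliferative gene that p53 induces in mammals, had 74.6, 78.1, 76.2 and 73.0 FPKM in WT and 77.7, 83.1, 80.4 and 85.6 FPKM in KO. 3 KO libraries lay above the WT range and KO 12_16 inside it. The log2 fold change was 0.11 (SE 0.081, 95% interval -0.07 to 0.29, adjusted p = 0.398 from limma), above 0 in all 21 alternatives.

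*egr1* (ENSDARG00000037421, chromosome 14, 21332522 to 21336385, minus strand), a zinc finger factor induced by growth factors and neuronal activity, had the largest difference of the 10. It had 3.20, 0.446, 1.33 and 1.11 FPKM in the WT libraries 12_16, 1_19, 1_8 and 1_8_ysy. In the KO libraries it had 0.569, 0.348, 0.554 and 0.565 FPKM, so 3 WT libraries were above all KO libraries and WT 1_19 was inside their range. The means were 1.52 ± 1.18 and 0.509 ± 0.108 FPKM (SD, n = 4 each). The log2 fold change of -0.83 (SE 0.348, 95% interval -1.61 to -0.06) did not pass the adjusted test (adjusted p = 0.140 from limma; two-sided exact permutation test, p = 0.114). It rested on single WT libraries: without WT 1_19 it passed (-1.14, adjusted p = 0.0290), and without WT 12_16 it was -0.49 (adjusted p = 0.273). These values rest on few reads: 156, 21, 62 and 54 in WT and 25, 16, 24 and 24 in KO.

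The table holds a second row with the same protein match, Early growth response protein 1. It is an unannotated row on an alternate contig of chromosome 14, a second version of that stretch in GRCz11, and its coordinates there begin 878 bases past the end of *egr1*. *egr4* carries the same protein match, so the match alone does not fix the gene. This row had 152, 100, 85 and 103 reads in WT and 126, 101, 105 and 168 in KO. Its difference from WT, a log2 fold change of 0.26 (SE 0.204, adjusted p = 0.450 from limma), was on the other side of 0 from that of *egr1*. Of the reads of both rows, *egr1* held 50.6%, 17.4%, 42.2% and 34.4% in the WT libraries and 16.6%, 13.7%, 18.6% and 12.5% in the KO libraries (two-sided exact permutation test over libraries, p = 0.0571, on a share chosen after the values were seen).

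With the reads of both rows added and the length of *egr1* kept, the WT libraries had 6.32, 2.57, 3.15 and 3.22 FPKM and the KO libraries 3.44, 2.55, 2.98 and 4.52 FPKM. Only WT 12_16 stood above the KO range. The means were 3.82 ± 1.70 and 3.37 ± 0.850 FPKM (SD, n = 4 each), and the log2 fold change was -0.11 (SE 0.252, 95% interval -0.67 to 0.45, adjusted p = 0.824 from limma). The high value of WT 12_16 was on both rows, while the gap between the groups was on the row of *egr1* alone. Which version of the stretch the fish carried was not tested, since the reads were not analysed here. The other 9 immediate early genes had no such row.

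**Figure D2:**
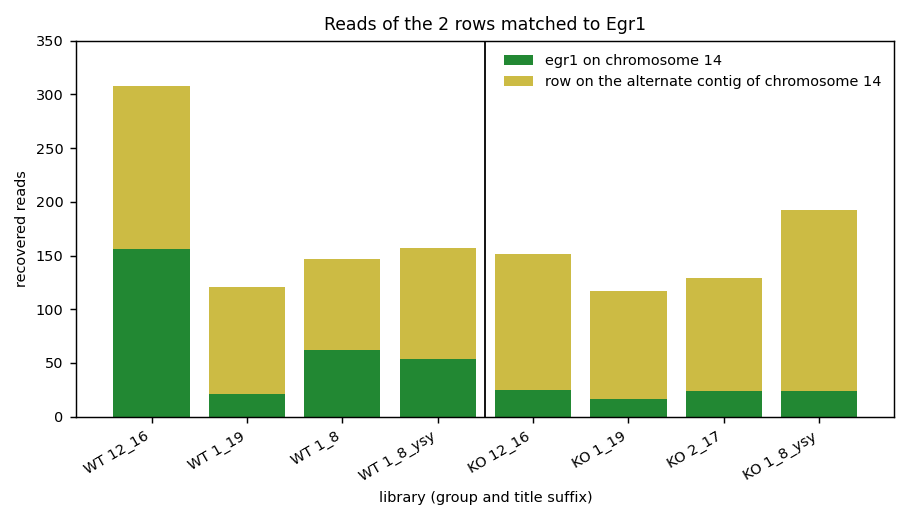
Recovered reads per library on the row of *egr1* (green) and on the alternate-contig row with the same protein match (yellow), stacked, for the 4 WT libraries and the 4 labelled *flrt2*-KO. The green part is 16 to 25 reads in the KO libraries and 21 to 156 in WT, while the whole bars span 117 to 192 and 121 to 308 reads.

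The spread between libraries of a group was larger for most of the 10 genes than for a typical gene. The median SD of log2(FPKM + 0.5) was 0.49 over the 10 genes in WT, against 0.24 over all genes tested, and 0.30 in KO against 0.23. In WT 8 of the 10 were above the median of all genes tested, and in KO 6 were. It was widest for *fosab*, with an SD of 0.83 in WT, larger than in 97.6% of genes tested, and 0.60 in KO, larger than in 93.4%. *egr1* had 0.81 in WT but 0.16 in KO, and *fosb* 0.51 and 0.19. At the other end, *btg2* had 0.04 and 0.06, less than all but 0.995% and 3.08% of genes tested, and *dusp1* had 0.14 and 0.12. Tested genes of like level had a median SD of 0.148 in WT and 0.163 in KO, so that *dusp1* was close to it in WT. The SD was larger in WT for 8 of the 10, against 51.1% of all genes tested. In WT this median rested largely on 1 library: it was 0.27 without WT 1_8_ysy, against 0.23 over all genes tested in the same 3 libraries. In KO it was 0.18 without KO 2_17, against 0.20. With equal column sums the median over the 10 genes was 0.50 in WT and 0.21 in KO. The SD over all genes tested was not computed under that scaling.

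The spread was set against that of counting. Chi-square per degree of freedom of the recovered reads, about 1 if counting were the only error, was 42.6 in WT and 14.1 in KO for *fosab* and 56.6 and 34.4 for *jun*. The medians over all genes tested were 5.32 and 4.66. At a given SD this measure grows with the number of reads. *jun*, with 610 to 1595 reads per library, had an SD larger than in 67.2% of genes tested in WT and 68.1% in KO. The SD falls with level, and at 0.314 and 0.313 *jun* was above the 75th percentile of tested genes of like level. That percentile was 0.246 in WT and 0.235 in KO. In KO, *egr1* (1.03) and *fosb* (1.34) varied about as much as counting alone gives, and in WT they had 44.0 and 13.5. *dusp1*, with many reads, had 22.2 and 14.9, above the medians although its SD was small, and *btg2* had 2.82 and 5.67.

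**Figure D3:**
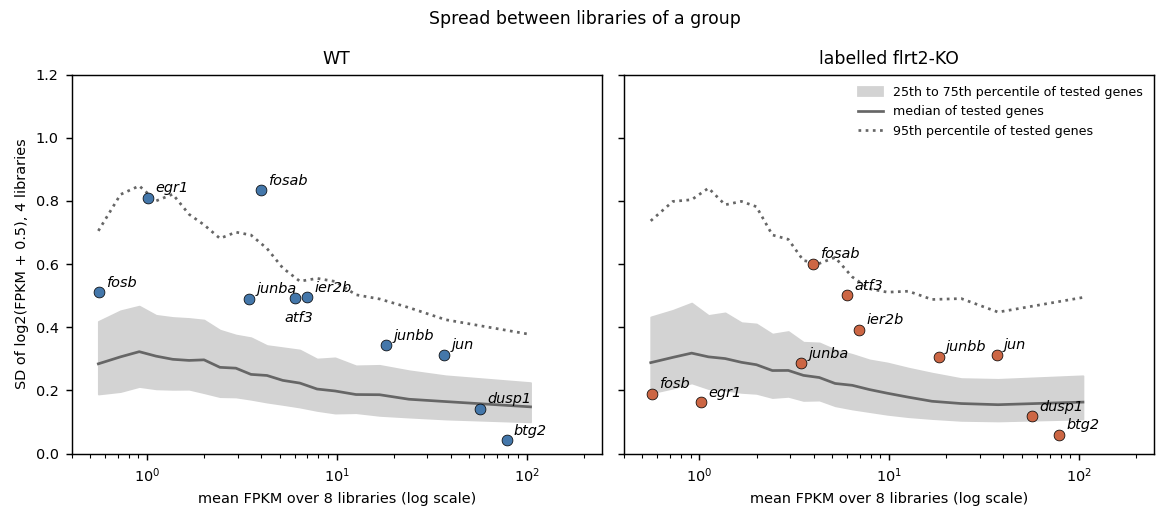
SD of log2(FPKM + 0.5) over the 4 libraries of a group against mean FPKM (log axis), for WT and for the libraries labelled *flrt2*-KO. The grey line, band and dotted line are the median, the 25th to 75th and the 95th percentile of tested genes of like level. *fosab*, at an SD of 0.83, is above the dotted line in WT, and *dusp1* and *btg2* are at or below the median in both panels.

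In WT the high values fell most often in 1_8_ysy, and in both groups the low values fell most often in 1_19. WT 1_8_ysy had the highest value of its group in 6 of the 10 genes (*fosab*, *fosb*, *junba*, *junbb*, *jun* and *atf3*), and WT 1_19 the lowest in 6 (*fosab*, *egr1*, *jun*, *ier2b*, *atf3* and *dusp1*). Among the KO libraries, 1_19 was lowest in 6 (*fosab*, *fosb*, *egr1*, *junba*, *junbb* and *ier2b*). The highest KO values were spread, with 2_17 highest in 4 (*junba*, *junbb*, *jun* and *ier2b*), 1_8_ysy in 3, 12_16 in 2 and 1_19 in 1. How often all genes tested were highest or lowest in each library was not computed. On the log2 scale the mean deviation of the 10 genes from their group mean was 0.14, -0.37, -0.15 and 0.38 in WT 12_16, 1_19, 1_8 and 1_8_ysy. It was -0.10, -0.16, 0.20 and 0.06 in KO 12_16, 1_19, 2_17 and 1_8_ysy. The library pair with the suffix 1_19 was thus the lowest of each group. These values were not rescaled, and KO 2_17 had the largest sum of FPKM, 507015 against 435005 to 448879 in the other KO libraries. How far its 0.20 and its high ranks rest on this was not tested.

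Different genes led in different libraries. *egr1* was highest in WT 12_16, by 1.05 on the log2 scale, where *fosb* was at its lowest, and *fosab* and *ier2b* were high in both WT 12_16 and WT 1_8_ysy. *fosab* was near its group mean in KO 2_17, where *ier2b*, *junbb*, *junba* and *atf3* were 0.55, 0.45, 0.40 and 0.40 above theirs. Over the 8 libraries, Pearson's r of the deviations was above 0 in 31 of the 45 pairs of genes, with a median of 0.34, and above 0.5 in 12. The closest pairs were *junbb* with *ier2b* (0.886), *junba* with *junbb* (0.863), *jun* with *atf3* (0.801) and *jun* with *ier2b* (0.777). *btg2* had r below 0 in 8 of its 9 pairs, lowest with *junba* (-0.552) but near 0 with *jun* (-0.031). Its deviations ran only from -0.07 to 0.07, too small for these signs to show an opposing pattern. These correlations describe 8 libraries whose genes share 1 scaling per library.

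**Figure D4:**
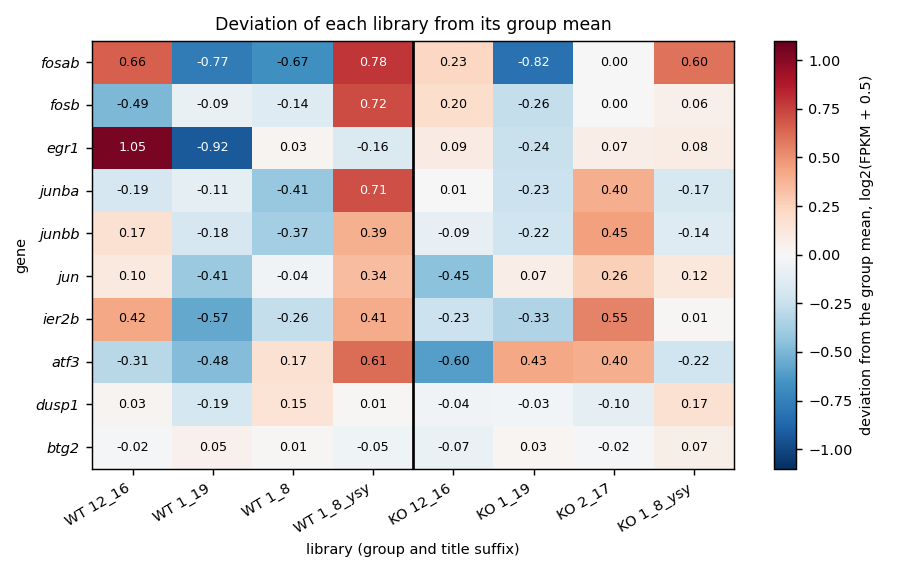
Deviation of log2(FPKM + 0.5) from the group mean for each gene and library, red above and blue below, with the value in each cell. WT 1_8_ysy is red for 8 of 10 genes and WT 1_19 blue for 9 of 10, and the rows of *dusp1* and *btg2* are nearly white.

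Some marker lists of other tissues were high or low in the same libraries. The summed level of surface epithelium markers was 4776, 4969, 4409 and 6189 FPKM in WT 12_16, 1_19, 1_8 and 1_8_ysy and 2207, 3053, 4524 and 4447 FPKM in KO 12_16, 1_19, 2_17 and 1_8_ysy. That of blood markers was 1300, 1028, 1425 and 1877 FPKM in WT and 376, 495, 947 and 538 FPKM in KO, and that of macrophages and microglia 42.0 to 53.1 FPKM in WT and 15.6 to 40.9 FPKM in KO. In all 3 lists WT 1_8_ysy and KO 2_17 were the highest of their group and KO 12_16 the lowest. Of the 10 genes only *jun* had these ranks (highest 1_8_ysy and 2_17, lowest 12_16), while *junba* and *junbb* were lowest in KO 1_19. This was not particular to these lists: of 12 marker lists, KO 2_17 had the highest sum of its group in 9, among them retinal progenitors (604 FPKM), lens and pigment epithelium, and WT 1_8_ysy in 6. Retinal neurons went the other way, with 217 FPKM in KO 2_17, the lowest, against 259 to 286 FPKM in the other KO libraries and 386 to 580 FPKM in WT (5 of 7 lower). Retinal progenitors were lowest in WT 1_8_ysy (432 FPKM), endothelium was lowest of its group in KO 2_17 (21.3 FPKM), and yolk and liver markers were highest in WT 12_16 (33.3 FPKM, 5 of 5 lower in KO). All 12, 6 and 8 genes of the lists of surface epithelium, blood, and macrophages and microglia that the table holds were read in at least 1 library, except *coro1a*, a leukocyte actin regulator that was listed at 0 in all 8. Of the genes tested, 3 of 9, 3 of 4 and 1 of 5 were lower in KO and 0 higher. Of the lens genes 3 of 9 were lower and 0 higher. Over all genes tested, 7.37% were lower and 8.28% higher. The part of these lists in the values of the immediate early genes was not tested. KO 2_17 also had the largest sum of FPKM of the 8 libraries, 507015 against 435005 to 448879 in the other KO libraries. The marker sums were not rescaled for this, and how far the ranks of KO 2_17 rest on it was not tested. With equal column sums the median SD of the 10 genes in KO was 0.21 in place of 0.30.

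The genes whose deviations were most like the mean of the 10 were sought among 14379 genes of at least 1 FPKM. The 10 highest were *laptm4a* (r = 0.974 over 8 libraries), *nav2b* (0.962), *hps4* (0.961), *dia1b* (0.959), *si:dkey-229e3.2* (0.953), *rpl30* (0.952), *dlx6a* (0.950), *c1galt1c1* (0.949), *rpp25b* (0.946) and *tgfbr2b* (0.943). They include genes of a lysosomal membrane protein, a ribosomal protein, a homeobox factor and a TGF-beta receptor, and 0 belong to the other response lists. *rpl30* ranged most, from 62.2 FPKM in KO 1_19 to 388 FPKM in WT 1_8_ysy, and *laptm4a* only from 30.2 to 38.9 FPKM. With so many genes ranked over 8 libraries, a high r is no sign of a tie.

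Other genes of the same responses were read against the 8.28% higher and 7.37% lower of all genes tested. Among 12 other AP-1 subunits tested, 1 was higher and 1 lower. The lower was *fosaa*, the other zebrafish *fos* copy, with 1.75 to 3.75 FPKM in WT and 0.444 to 2.02 FPKM in KO, a log2 fold change of -1.11 (SE 0.317, adjusted p = 0.0393 from limma). Unlike *fosab* it passed the test, though the difference between both genes was not tested, the groups overlapped, and it was lost with the suffix as a block (adjusted p = 0.0599) and in 6 of the 8 fits that left out a library. The higher was *atf7b*, an ATF gene (0.62, adjusted p = 0.0398), which had -0.20 (adjusted p = 0.257) with the reads of its alternate-contig row added. Of 31 other transcription factors of the primary response 0 were higher and 2 lower. The median log2 fold change was -0.28 and 25 were below 0, against 51.7% of all genes tested. Of the 31, 6 had an unadjusted p under 0.05 from limma, against 29.1% of all genes tested. The 2 lower genes were *nfil3-5*, a bZIP repressor gene (-0.56, adjusted p = 0.0220), and *klf11b*, a Krüppel-like factor gene (-0.55, adjusted p = 0.0404). With the suffix as a block neither passed (0.0897 and 0.0552), and as single libraries were left out they were lost in 4 and 7 of 8 fits.

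Of 41 other primary response genes, 1 was higher and 2 were lower (median -0.13). *btg3*, of the same antiproliferative family as *btg2*, had 5.20 to 7.87 FPKM in WT and 14.9 to 23.0 FPKM in KO (1.51, adjusted p = 0.000245), but 0.22 (adjusted p = 0.293) with alternate-contig reads added. *tiparp*, an ADP-ribosyltransferase gene (-0.60, adjusted p = 0.00762), and *sgk1*, a serum- and glucocorticoid-induced kinase gene (-0.50, adjusted p = 0.0412), likewise had -0.11 and -0.23 with those reads. Of 12 other MAP kinase phosphatases and feedback inhibitors, *dusp6*, the ERK phosphatase, was higher (0.84, adjusted p = 0.0285, or 0.07 with those reads) and 0 were lower (median 0.13).

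Among 33 upstream kinases and factors, 3 were higher and 3 lower (median 0.00). *mapk14a*, a p38 MAP kinase gene, was lower (-1.45, adjusted p = 0.000726) and *mapk14b*, the other copy, higher (0.54, adjusted p = 0.0205). *crebbpa*, a CREB-binding acetyltransferase gene (1.06, adjusted p = 0.00360), and *atf1*, a CREB family gene (0.81, adjusted p = 0.00741), were higher, and *rps6ka3b*, an RSK kinase gene (-1.18, adjusted p = 0.00675), and *map2k1*, the MEK1 gene (-0.35, adjusted p = 0.0438), were lower. With alternate-contig reads added, *mapk14a* had 0.07, *crebbpa* 0.16 and *atf1* 0.19, none of them called, and *map2k1* no longer passed (adjusted p = 0.0501). With the suffix as a block *mapk14b* (0.0812), *map2k1* (0.0855) and *rps6ka3b* (0.05003) did not pass, and *map2k1* was lost in 7 of the 8 fits that left out a library.

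Of 16 heat shock genes 0 were higher and 1 lower (median -0.26), with 6 at an unadjusted p under 0.05, against 29.1% of all genes tested. *hsp70.1*, an inducible Hsp70 gene, had 5.62, 4.21, 5.19 and 11.5 FPKM in WT and 1.16, 2.42, 2.51 and 3.63 FPKM in KO (-1.26, SE 0.329, adjusted p = 0.0273, and 0.0258 with the block). It was not called in 6 of the 8 fits that left out a library (adjusted p up to 0.0611). Like *fosab* it was highest in 1_8_ysy of both groups, and the list's median SD was 0.48 in WT and 0.30 in KO. Other Hsp70 genes of the list were not called by limma. These were *hsp70l* (-0.35, adjusted p = 0.692), *hsp70.2* (-0.26, adjusted p = 0.694) and *hsp70.3* (0.06, adjusted p = 0.937). How reads were assigned among these genes and *hsp70.1* was not tested. Of 17 genes of the integrated stress response, which induces *atf3*, 0 were higher and 1 lower, *slc3a2a*, an amino acid transporter subunit (-0.56, adjusted p = 0.0409), with a median of 0.01. *slc3a2a* was lost with the suffix as a block (adjusted p = 0.0772 from limma) and in 6 of the 8 fits that left out a library. Of 10 glucocorticoid response genes 1 was higher, *zbtb16a*, a zinc finger factor gene (0.73, adjusted p = 0.00961), and 1 lower, *sgk1* (median -0.11), with 4 at an unadjusted p under 0.05. Of 12 p53 targets 0 were called by limma (5 at an unadjusted p under 0.05, and 1 by voom), and the smallest p values were those of *sesn1* (-0.42, adjusted p = 0.0594) and *ccng1* (0.59, adjusted p = 0.0984). Over these lists 17 genes were called, each counted once, where 15.6% of all genes tested were called in either direction. Some lists share genes, and the pooled share was not computed. Of the 17 genes, 6 were called with the suffix as a block, 8 with alternate-contig reads added, and 2 (*hsp70.1* and *zbtb16a*) under both.

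**Figure D5:**
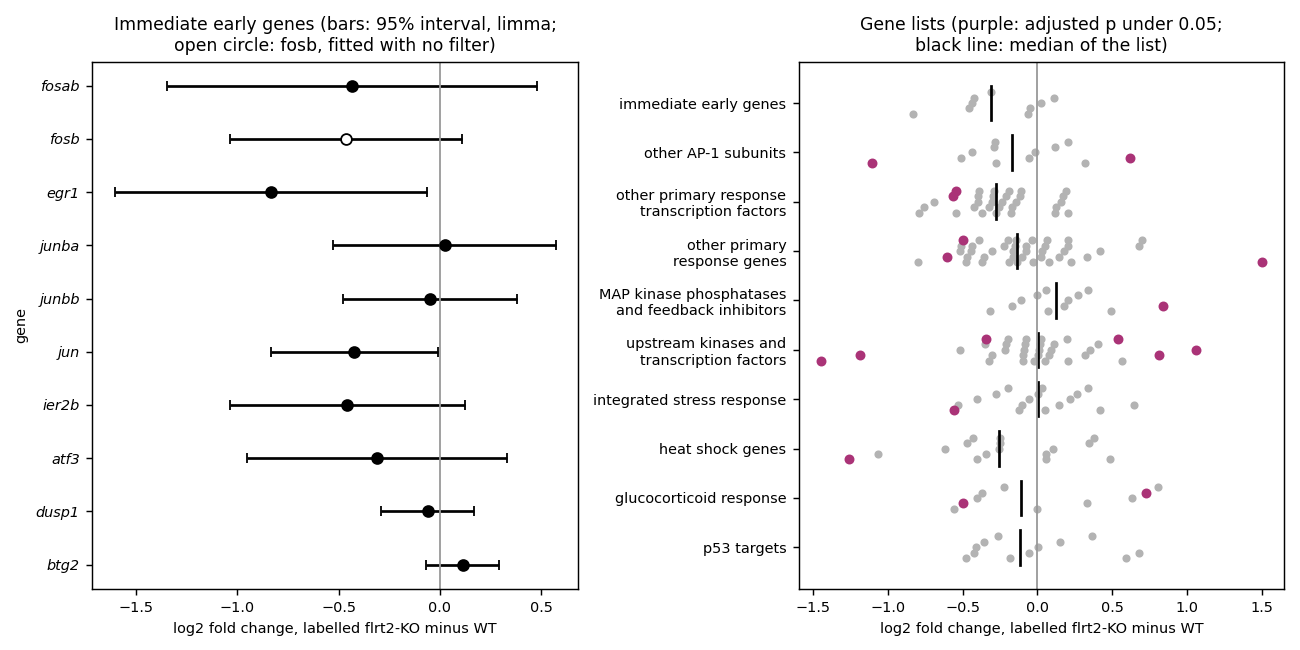
Left, log2 fold change of each immediate early gene (libraries labelled *flrt2*-KO minus WT) with its 95% interval from limma, *fosb* fitted with no filter as an open circle. Right, log2 fold change of each tested gene in the 10 lists, purple where the adjusted p was under 0.05, with the median as a black line. None of the immediate early genes is purple, and their median is -0.31.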

How the data were processed

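RNA from pooled eyes was sequenced in 8 libraries as 150 bp paired-end reads. The authors used HISAT2 2.0.5 for alignment to GRCz11, featureCounts 1.5.0-p3 for gene counts and DESeq2 for their tests. Only FPKM values were deposited, in 1 table, and they were not rescaled here. The labels name a TruSeq kit and retina, the methods NEBNext Ultra and eyes, and the methods' 36 hpf was used. The product of FPKM and gene length fell on steps of 1 read for 100% of values (tolerance 1e-06), which gave the recovered reads. Between libraries of a group, chi-square per degree of freedom over genes was 10.7 to 27.9, so none was a second count of the same library. Separate preparations of the same pool cannot be told from separate pools this way. WT 1_8 and WT 1_8_ysy share part of their title. Nothing says that the pools came from separate clutches, so p-values measure the spread between these libraries.

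Genes that reached 0.5 FPKM in 4 or more libraries were tested on log2(FPKM + 0.5) with limma 3.58.1 in R 4.3.3 (intensity trend, robust prior), two-sided, with Benjamini-Hochberg adjustment over 21012 genes, and called at an adjusted p under 0.05. This scale understates the fold changes of low genes. The SD is that of these log2 values. The steps were run on simulated reads, drawn independently for each gene and library with 1 fixed dispersion and known folds. Such reads hold no deviation shared by the genes of a library, so this run does not cover that part of these data. The 10 genes, the lists and the alternatives were chosen with earlier results of these data known. Named genes of the other lists are those called, up to 6 per list, or else the 2 with the smallest p. *hsp70l*, *hsp70.2* and *hsp70.3* were added beside *hsp70.1*. Genes most alike were ranked by Pearson's r with the mean deviation of the 10 genes. Rows on alternate contigs were paired with the gene of the same protein match, if within 0.2 Mb.

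The titles share a suffix in 3 pairs of libraries across the groups. Their deviations from group means correlated over genes at 0.106 to 0.141, and those of the other 13 pairs at -0.223 to 0.112. The ranges overlapped, with WT 1_8_ysy and KO 2_17 at 0.112, so they do not settle whether the suffix marks pairs. The suffix was treated as pairing only in an alternative with a block. This block rests on the 3 pairs, without WT 1_8 and KO 2_17. Other alternatives were pseudocounts of 0.1 and 1, no filter or one at 1 FPKM, scaling by median ratio, by quantiles or to equal sums, no trend or robust prior, array weights, 1_8 and 1_8_ysy joined in the block, voom, each library left out, alternate-contig reads added, a log2 fold change beyond 1 and an adjusted p under 0.01. Promoter and protein sequences were not used here. Figures were made in Python 3.11.15 with matplotlib 3.10.9.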

Additional observations from a re-analysis of the deposited data

Results flagged for a closer look

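Of 20 sets of 4 values (10 genes in each group), 2 held a library far from the other 3, where chance gives about 1 in 20. *egr1* in KO 1_19 had 0.348 FPKM, against 0.554 to 0.569 FPKM in the other 3 libraries labelled *flrt2*-KO, a gap of 0.935 of the group's range. These are 16 reads against 24 to 25. Chi-square per degree of freedom of *egr1* in KO was 1.03, about what counting alone gives. *junbb* in KO 2_17 had 24.2 FPKM, against 15.0 to 16.5 FPKM in the others, a gap of 0.838 of the range. That library also had the highest sum of its group in 9 of 12 marker lists, among them retinal progenitors (604 FPKM), surface epithelium (4524 FPKM) and blood (947 FPKM). Its sum of FPKM over all rows was also the largest, 507015 against 435005 to 448879 in the other KO libraries, and the marker sums were not rescaled for this. The part of the marker lists or of this sum in the value of *junbb* was not tested.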

How the results depend on the processing

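The count of immediate early genes called was 0 in both directions under the alternatives run, except that 1, *egr1*, was lower without WT replicate 2 (1_19), at a log2 fold change of -1.14, so leaving out a library gave 0 to 1 lower. *fosab*, *fosb*, *jun*, *ier2b* and *atf3* were below 0 and not called in each alternative that could be run, and *btg2* above 0. As each library was left out, *fosab* was -0.69 to -0.16, *fosb* -0.63 to -0.23, *egr1* -1.14 to -0.49, *jun* -0.56 to -0.27, *ier2b* -0.65 to -0.32 and *atf3* -0.47 to -0.11. *egr1* did not pass the filter at 1 FPKM. *junba*, at 0.02, was -0.039 with equal column sums, -0.054 with array weights, -0.25 with the suffix as a block, -0.085 with 1_8 and 1_8_ysy joined in it, and -0.11 to 0.26 as each library was left out. *junbb* was -0.20 to 0.080 as each library was left out and -0.32 with the block. *dusp1* was 0.022 with the block and 0.0023 with the joined block. Over all genes, the block gave 1134 higher and 992 lower calls (1880 of its 2126 calls shared with the 3288 without it). The block changed no call of the 10 genes. A log2 fold change beyond 1 gave 755 and 703, and an adjusted p under 0.01 gave 866 and 729. With alternate-contig reads added, 1186 were higher and 990 lower. Leaving out a library gave 1013 to 1667 higher and 820 to 1350 lower. The median SD of the 10 genes was 0.27 to 0.53 in WT and 0.18 to 0.34 in KO as each library was left out. Equal column sums moved the median log2 fold change of all genes to -0.07. The cause of these differences was not tested. *fosb* and *egr1* rest on 9 to 63 and 16 to 156 reads per library, and intervals cover 4 libraries a group.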
